A study of Mus musculus with 3 samples.

Results

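The chromaffin-like cells described here are 55 of the 8361 cell barcodes recovered from dissociated mouse heart atria. They were chosen from measured values. A barcode was first kept if it held at least 1000 unique molecular identifiers (UMIs, each standing for 1 captured RNA molecule) and at least 500 genes, with at most 20% mitochondrial UMIs, which left 7091 barcodes. A kept barcode was then called chromaffin-like if it had Rgs5 at 2 or more UMIs per 10000, at least 2 UMIs of Chgb, at least 1 UMI of Slc18a2, and fewer than 3 of the smooth muscle and pericyte genes Acta2, Myh11, Tagln, Kcnj8 and Notch3. The mixed library held 20 such cells, the anterior library 14 and the posterior library 21. The histological name for such cells, small intensely fluorescent (SIF) cells, refers to amine fluorescence, which was not measured here.

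The study isolated intrinsic cardiac neurons, the nerve cells of the ganglia on the atria, by sorting GFP-positive cells. The mice were Baf53b-cre;lox-GFP: the promoter of Baf53b (Actl6b, a neuronal subunit of the BAF chromatin remodelling complex) drives Cre, which switches GFP on. Single-cell libraries were made with 10x 3′ V3 chemistry, 1 for each of 3 groups. The mixed library came from pooled ganglia of 2-month-old mice, the anterior library from anterior ganglia of 3-month-old mice and the posterior library from posterior ganglia of 4-month-old mice. Females and males contributed to each library, and the protocol names 10 mice. All groups carry the same genotype, none lacks the Cre, and the labels call every sorted cell a neuron. Region, age and library cannot be told apart, and the labels do not say whether the libraries share animals, so the p-values below measure the spread between 3 libraries, which may be technical.

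SIF cells are small, catecholamine-storing cells of autonomic ganglia, relatives of the chromaffin cells of the adrenal medulla and of the glomus cells of the carotid body. Tyrosine hydroxylase (Th) and aromatic L-amino acid decarboxylase (Ddc) make dopamine, dopamine beta-hydroxylase (Dbh) converts it to noradrenaline, and Pnmt converts that to adrenaline. The vesicular monoamine transporters Slc18a1 (VMAT1) and Slc18a2 (VMAT2) load the amines into dense-core vesicles, which are built around granin proteins. Glomus cells are known as oxygen sensors and carry an unusual set of mitochondrial subunits under the hypoxia factor HIF-2α (Epas1).

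Promoter sequences of 4 dense-core vesicle and catecholamine genes are shown, each chosen because it held a cyclic AMP response element or a variant of it. The RNAs of Th, Chga and Scg2 were higher than in neurons in the results below, and Chgb helped choose the cells. Each sequence is the RefSeq reference of GRCm38.p6, read 5′ to 3′ on the gene's own strand, with the element in capitals. The element searched was TGACGTCA, which is its own reverse complement, and, for Chga, the variant TGACGTAA on either strand. The stretch from Th lies at chr7:142899996-142900115 (minus strand), with the element 45 bases before the RefSeq start.
Th: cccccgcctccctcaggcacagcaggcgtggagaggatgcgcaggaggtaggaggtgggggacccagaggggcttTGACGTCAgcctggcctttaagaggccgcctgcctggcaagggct
The stretch from Chga lies at chr12:102554821-102554940 (plus strand), with the variant 44 bases before the start.
Chga: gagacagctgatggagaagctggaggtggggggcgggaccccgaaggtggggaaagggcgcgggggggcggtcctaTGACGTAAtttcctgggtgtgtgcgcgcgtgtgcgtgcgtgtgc
The shorter stretches from Chgb (chr2:132781559-132781588, plus strand) and Scg2 (chr1:79440076-79440105, minus strand) hold the element 72 and 68 bases before the RefSeq start. The stretches from Th, Chgb and Scg2 lie inside the GENCODE gene spans given below, whose starts differ from the RefSeq starts.
Chgb: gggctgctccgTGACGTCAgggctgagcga
Scg2: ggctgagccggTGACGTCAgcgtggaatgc
Over the whole RefSeq promoter table TGACGTCA occurred in 508 of 32851 windows of 250 bases before a start (1.55%), and TGACGTAA in 147 (0.447%). Of the 11 granin and peptide-processing genes with a window, Chgb, Scg2 and Pcsk1 held TGACGTCA and Chga held TGACGTAA. Pcsk1 was lower than in neurons and is not shown. Of the 12 catecholamine genes with a window, Th held TGACGTCA, and none of 16 oxygen-sensing genes held either. No match was recorded for Scg3, Scg5, Slc18a1, Gch1 and Cyb561, which were also higher than in neurons. Not every listed gene had a window. A match describes the letters in the window and says nothing of which factor binds there.

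The cells on either side of the limits were few. Rgs5 (a regulator of G protein signalling, chr1:169655501-169695813) had a median of 97.2 UMIs per 10000 in the 55 cells and a highest value of 195, while the 4 lowest cells had 2.10, 9.04, 13.9 and 15.6. Among the 112 barcodes that failed the Rgs5 limit alone, the highest value was 1.47, and only 2 lay between 1 and 2. Chgb (chromogranin B, chr2:132781278-132795079) ranged from 20 to 315 UMIs per cell with a median of 99, and no barcode failed the Chgb limit alone. Slc18a2 (chr19:59260896-59296012) was the thinnest criterion, with a median of 3 UMIs and a single UMI in 13 cells. A further 14 barcodes failed on Slc18a2 alone, and 5 of them held at least 20 Chgb UMIs. None of the 55 cells had any of the 5 smooth muscle and pericyte genes. Rgs5, Chgb and Slc18a2 chose the cells and are described without a test.

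The reference classes came from the same libraries. Neurons were 4714 barcodes (1970 mixed, 1313 anterior, 1431 posterior) with at least 10000 UMIs and Snap25, Prph and Stmn2 all detected. Mural cells, the smooth muscle cells and pericytes of vessel walls, were 179 barcodes (104, 27 and 48) with at least 3 of the 5 genes named above, a summed level of those genes of at least 10 UMIs per 10000, and more of them than of Snap25, Prph and Stmn2. Macrophages, 83 barcodes (22, 15 and 46), show the level that free RNA can give in droplets. The median chromaffin-like cell held 8086 UMIs and 2981 genes, against 51692.5 UMIs in neurons and 5684 in mural cells. By library the medians were 7588.5 (mixed), 6766 (anterior) and 11814 UMIs (posterior). Because neurons were deeper, levels are given as UMIs per 10000, and shares of cells with a UMI are compared only after thinning each cell to 2000 UMIs.

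The share of chromaffin-like cells among kept barcodes was 0.820% for the mixed library, with an exact Clopper-Pearson 95% interval of 0.502 to 1.26. The anterior share was 0.690% (0.378 to 1.15) and the posterior share 0.8% (0.496 to 1.22). The 3 intervals overlap, so no difference in share was detectable at these numbers of cells. Intervals here and below cover counting error only. With 1 library per region, no test between regions exists.

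A few cells, 3 of the 55, stood apart by their neuron genes. The summed level of Snap25, Prph and Stmn2 was 66.8 UMIs per 10000 in an anterior cell of 11519 UMIs, and 64.5 and 102 in posterior cells of 58618 and 71418 UMIs. In the other 52 cells it did not exceed 26.3, and the median over all 55 was 8.66, against 98.7 in neurons. These 3 cells also had 3 of the 4 lowest Rgs5 levels and held 11.1% of the anterior and 40.1% of the posterior UMIs of the class. In all, 13 cells met the neuron criterion as well, 11 of them posterior, and without these 13 the posterior share of kept barcodes was 0.381%. Only 3 of the 13 were neuron-rich. The median of the 13 was 10.8 UMIs per 10000 for the neuron genes and 13414 UMIs in depth, where the criterion asks for at least 10000. The doublet caller marked none of the 55 cells but only 0.310% of all kept barcodes, so it did not work here. Whether the 3 cells hold RNA of a neuron captured with them was not tested, and the counts below are given with and without them.

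**Figure D1:**
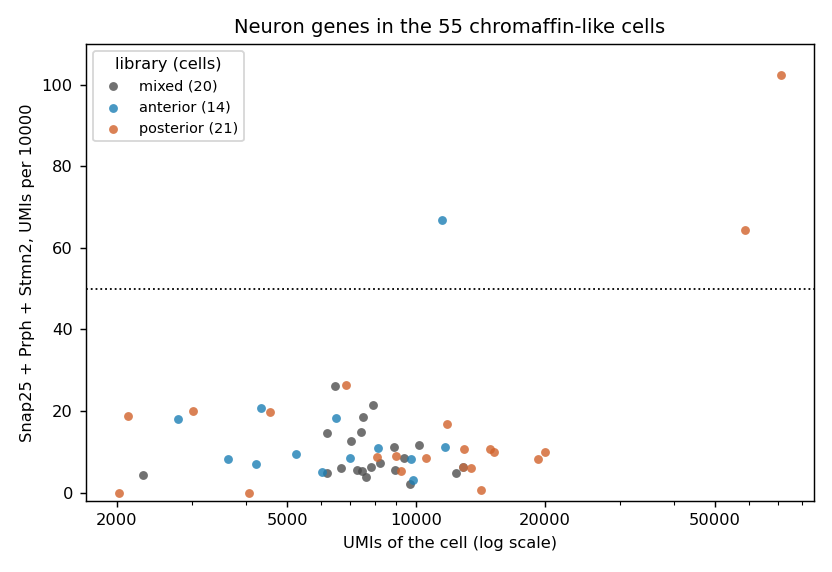
Summed level of the neuron genes Snap25, Prph and Stmn2 (UMIs per 10000, vertical axis) against the UMIs of the cell (log scale) for the 55 chromaffin-like cells, coloured by library. The dotted line marks 50 per 10000: 3 cells lie above it, at 64.5, 66.8 and 102, and the other 52 lie at or below 26.3.

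Markers of mural cells, macrophages, fibroblasts and epithelium were near 0. Of 10 mural markers, Pdgfrb was found in 1 cell and the other 9 in none, with a summed level of 0, 0 and 0.0320 UMIs per 10000 in the mixed, anterior and posterior cells against 370, 379 and 288 in mural cells. Among these markers, Acta2, Myh11, Tagln, Kcnj8 and Notch3 helped choose both classes. The contrast between the sums was therefore partly fixed by the selection. The 6 macrophage markers summed to 0, 0 and 0.257, the 6 fibroblast markers to 0, 0 and 0.159, and the 5 epithelial markers were absent. The 7 glial markers summed to 0, 1.01 and 1.3. Of 6 endothelial markers, Cdh5, Flt1 and Emcn were at 0, and the 6 summed to 0.812, 1.73 and 1.70 against 0.735, 0.855 and 0.646 in neurons. Egfl7 had a UMI in 35 cells and did not pass the test against neurons (log2 fold change 0.48, edgeR adjusted p = 0.257), but was higher than in mural cells (2.53, 8.19e-04), a call lost without the posterior library (0.0616). Kdr, a receptor for Vegfa, had a UMI in 6 cells and was higher than in neurons (5.10 ± 1.25, edgeR adjusted p = 5.33e-04), a call lost without the anterior library (0.251). The 6 cardiomyocyte markers summed to 0, 3.37 and 0.821, led by Nppa in 11 cells. The neuron markers were the exception, at 15.6, 26.4 and 29.6 for 6 genes against 162, 148 and 138 in neurons and 2.21, 6.74 and 16.5 in macrophages. Without the 3 cells above, the neuron markers summed to 15.6, 18.4 and 19.5. Snap25, Prph and Stmn2 are among these markers and define the neurons, so the high sums in neurons were partly fixed by that choice.

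Differences between classes were tested with edgeR on UMIs summed per class and library, with library as a term and Benjamini-Hochberg adjustment over all genes tested. Against neurons, 990 of 13106 genes (7.55%) were higher in chromaffin-like cells and 1768 (13.5%) were lower. The counts of gene lists below are to be read beside these shares. Without the 3 neuron-rich cells, 1181 genes were higher and 2555 lower, and 953 of the 990 and 1739 of the 1768 were called again in the same direction. Leaving out the mixed, anterior or posterior library gave 622, 535 or 629 higher genes, and leaving out the mixed or anterior library gave 1060 or 682 lower genes. Against mural cells, 722 of 4026 genes (17.9%) were higher and 917 (22.8%) lower. Without the 3 cells, 575 of the 722 and 751 of the 917 were called again, while 122 and 144 of them were no longer tested. A gene passes the filter on low counts if either class has enough UMIs, so genes tested against mural cells were often tested through the class where they are high. Against neurons this also held for genes such as Insm1, Higd1c, Kcnmb2, Gdnf and Gpr139. These had 10, 7, 5, 3 and 1 UMIs in all neurons together. The direction of such calls was partly fixed by the filter. On simulated data, genes with a 4-fold difference were recovered in 95.4% (neurons) and 91.1% (mural cells) of cases, and those with a 2-fold difference in 24.2% and 36.4%. The changed genes were drawn only from those above a minimum expected count in the chromaffin-like sums, under a fixed spread between libraries. These rates therefore do not cover genes with few UMIs. The classes were drawn from the cells that the test compares, so a p-value tells how repeatable a difference was over the libraries.

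Catecholamine synthesis and storage genes divided into those above and those below the neurons. Of 17 listed genes outside the selection, 13 were tested against neurons. Of these, 4 (Th, Gch1, Slc18a1 and Cyb561) were higher and 7 lower, where 7.55% of all genes were higher and 13.5% lower. Without the 3 neuron-rich cells the count was 5 higher and 8 lower, since Ddc then passed as higher and Dbh as lower. Against mural cells 8 of 10 tested genes were higher and 2, Spr among them, were lower, where 17.9% of all genes were higher and 22.8% lower. Without the neuron-rich cells 7 of 9 were higher and 2 lower.

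Th (chr7:142892752-142931128) averaged 5.13, 9.32 and 6.79 UMIs per 10000 in the mixed, anterior and posterior cells, against 0.665, 0.785 and 0.752 in neurons and 0.104, 0.196 and 0.104 in mural cells. The library means of the 3 classes did not overlap. Among the 55 cells Th ran from 0 through a median of 5.26 to 31.8, and 52 had a UMI. Its log2 fold change was 2.68 ± 0.28 (SE) against neurons (edgeR adjusted p = 9.84e-20) and 5.65 ± 0.38 against mural cells (1.89e-08). After thinning, 70.9% of chromaffin-like cells had a Th UMI, against 11.8% of neurons, 2.38% of mural cells and 5.26% of macrophages. Chga, the other marker of the label outside the selection, was found in all 55 cells.

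Ddc (chr11:11814101-11898144) averaged 5.65, 5.73 and 3.58 UMIs per 10000, against 2.22, 2.40 and 2.18 in neurons. Its means were above those of neurons in all 3 libraries, but the difference did not pass the test (log2 fold change 0.44 ± 0.27, edgeR adjusted p = 0.270). Without the 3 neuron-rich cells it was 0.55 (edgeR adjusted p = 0.025). Ddc was higher than in mural cells by 4.26 ± 0.42 on the log2 scale (edgeR adjusted p = 6.01e-07).

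The step to noradrenaline was sparse. Dbh (chr2:27165233-27183200) had a UMI in 7 of the 55 cells, 4 mixed and 3 posterior, and in none of the 14 anterior cells, where the exact Clopper-Pearson 95% interval for the share of cells with a UMI reaches 23.2%. Its mean was 0.708, 0 and 0.444 UMIs per 10000 in the 3 libraries, against 0.538, 0.676 and 1.35 in neurons and 0, 0 and 0.209 in macrophages. Of the 57 posterior UMIs all but 1 came from the 2 neuron-rich posterior cells. Over all cells the log2 fold change against neurons was -0.27 ± 0.32 (edgeR adjusted p = 0.606), and without the neuron-rich cells it was -2.04 (3.41e-06). Pnmt had no UMI in any of the 55 cells. Th and Ddc were found together in 48 of 55 cells (87.3%, 75.5 to 94.7), and 41 of 55 (74.5%, 61.0 to 85.3) had both with no Dbh UMI.

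Of the vesicular monoamine transporters, Slc18a2 was required of every cell. Slc18a1 (chr8:69037711-69089235) averaged 3.09, 1.28 and 4.48 UMIs per 10000, against 0.0396, 0.0411 and 0.0533 in neurons, and had no UMI in mural cells. It was higher than in neurons by 5.45 ± 0.31 on the log2 scale (edgeR adjusted p = 3.06e-67) and at least 87.1-fold higher than in mural cells, counted against a floor of 3 UMIs over the class. Slc18a1 had a UMI in 43 of the 55 cells, 17 of 20 mixed, 8 of 14 anterior and 18 of 21 posterior cells.

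Among the cofactor and supporting enzymes, Gch1 (the first enzyme of tetrahydrobiopterin synthesis) was higher than in neurons by 1.61 ± 0.28 on the log2 scale (edgeR adjusted p = 2.01e-07), at 2.06, 1.26 and 1.75 UMIs per 10000. Cyb561, the vesicle membrane cytochrome that supplies electrons for Dbh, was higher by 1.53 ± 0.28 (7.39e-07). Without the anterior library Cyb561 missed the threshold (edgeR adjusted p = 0.0553). The other biopterin genes Pts, Spr, Qdpr and Pcbd1 and the amine-degrading enzymes Maoa and Maob were among the lower genes, with log2 fold changes from -0.95 (Pcbd1) to -2.90 (Maob). Pts, Qdpr and Pcbd1 missed the threshold without the mixed or the anterior library (edgeR adjusted p from 0.0727 to 0.444). The plasma membrane transporters Slc6a2 and Slc6a3 had no UMI in the 55 cells.

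**Figure D2:**
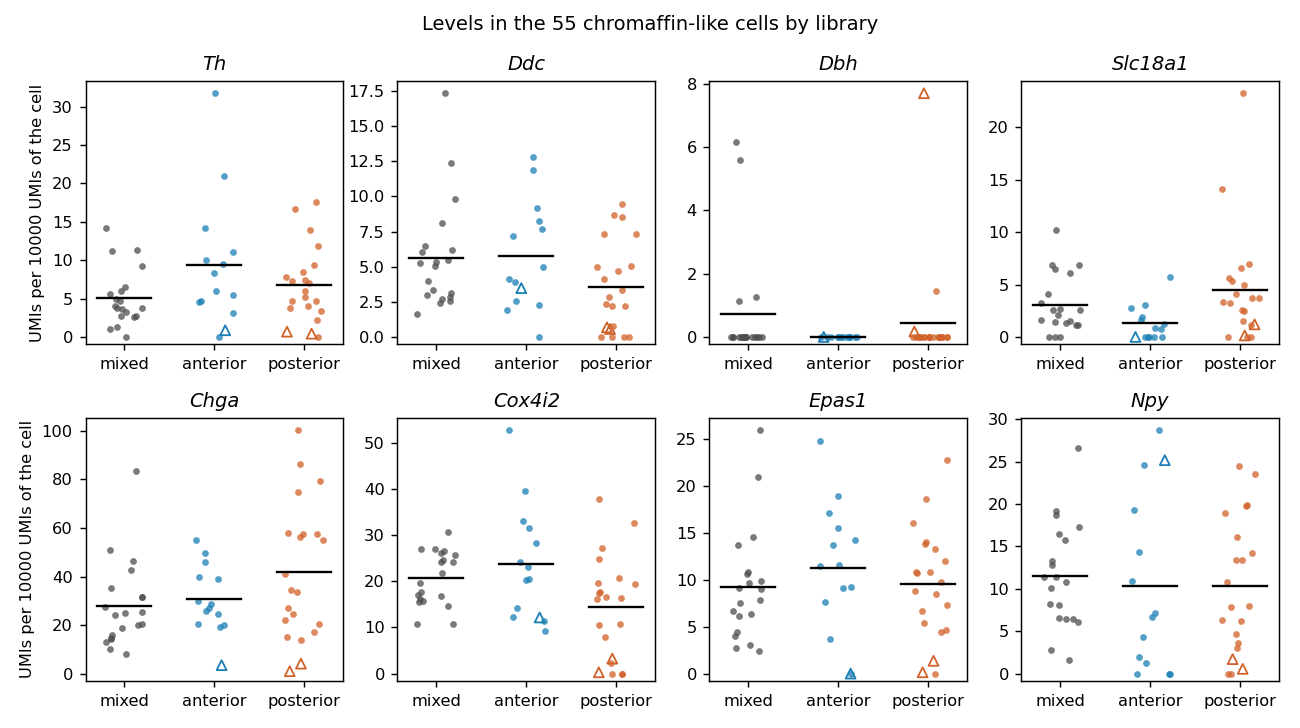
Level of 8 genes (UMIs per 10000, vertical axes differ) in each of the 55 chromaffin-like cells, by library. Points are cells, horizontal lines are library means, and open triangles are the 3 neuron-rich cells. Chga was found in every cell, while Dbh was at 0 in all 14 anterior cells and its highest value, 7.70, belongs to a neuron-rich posterior cell.

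Granins are the acidic proteins of dense-core vesicles, listed here with the genes that process prohormones. Of 12 tested genes outside the selection, 4 were higher than in neurons (Chga, Scg2, Scg3, Scg5) and 5 lower (Vgf, which is itself counted among the granins, Pcsk1, Pcsk1n, Cpe, Pam), with the same counts without the neuron-rich cells. Against mural cells 6 of 8 tested genes were higher, and Cpe and Pam were lower. The shares over all genes were 7.55% higher and 13.5% lower against neurons, and 17.9% and 22.8% against mural cells. Pam was not called against mural cells without the anterior library (edgeR adjusted p = 0.0558).

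Chga (chromogranin A, chr12:102554969-102565028) averaged 28.0, 30.7 and 41.9 UMIs per 10000, against 0.744, 1.08 and 1.01 in neurons, 0.0497, 0.0851 and 0.0561 in mural cells and 0, 0 and 0.2 in macrophages. Cells ran from 0.980 through a median of 27.1 to 100. The library means lay far above the other classes, with a log2 fold change of 4.58 ± 0.30 against neurons (edgeR adjusted p = 1.87e-51). Scg2 (secretogranin II, chr1:79434669-79440120) averaged 18.2, 18.9 and 16.7 against 1.37, 1.29 and 0.968 in neurons, a log2 fold change of 3.61 ± 0.29 (edgeR adjusted p = 5.59e-34). Scg5 (the 7B2 chaperone of prohormone convertase 2) was higher by 1.95 ± 0.27 and Scg3 (secretogranin III) by 0.96 ± 0.27, and both missed the threshold without the anterior library (edgeR adjusted p = 0.0763 and 0.337).

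Several processing genes were lower. Pcsk1n, which encodes the proSAAS inhibitor of prohormone convertase 1, averaged 28.0, 33.4 and 14.7 UMIs per 10000 against 37.8, 51.5 and 35.9 in neurons (log2 fold change -1.04 ± 0.25, edgeR adjusted p = 3.47e-04). Prohormone convertase 1 itself, Pcsk1, had a UMI in 5 cells and was lower, with a log2 fold change of -2.39 ± 0.54 (edgeR adjusted p = 1.35e-04). The amidating enzyme Pam and carboxypeptidase E (Cpe) had log2 fold changes of -1.36 and -0.94. Without the anterior library Pcsk1n, Pam and Cpe missed the threshold (edgeR adjusted p = 0.562, 0.280 and 0.439), and without the mixed library Pcsk1n and Cpe did (0.0760 and 0.0911). Prohormone convertase 2 (Pcsk2) and the vesicle phosphatase-like proteins Ptprn and Ptprn2 did not pass the test, at 1.04, -0.14 and 0.64.

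Genes known from oxygen-sensing glomus cells were higher than in neurons in 13 of 25 tested cases. A further 5 were lower. Over all genes 7.55% were higher and 13.5% lower. The list had a median log2 fold change of 1.33 against -0.22 over all genes tested. Without the neuron-rich cells 13 were higher and 6 lower. Against mural cells 10 of 19 tested genes were higher and 2, Hif1a and Egln1, were lower, and without the neuron-rich cells 11 of 17 were higher and 4 lower. Egln1 was not called against mural cells without the anterior or the posterior library (edgeR adjusted p = 0.112 and 0.179). The list was drawn up with earlier results of these data known.

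Epas1 (HIF-2α, chr17:86753700-86833410) averaged 9.29, 11.2 and 9.54 UMIs per 10000, against 0.0220, 0.0446 and 0.0439 in neurons and 1.16, 2.13 and 3.24 in mural cells. It was found in 52 of the 55 cells, with a median of 9.22 and a highest value of 26.0. The log2 fold change was 8.25 ± 0.35 against neurons (edgeR adjusted p = 1.72e-116) and 2.03 ± 0.32 against mural cells (8.45e-05). Its relative Hif1a averaged 0.513, 0.464 and 0.614 and did not pass the test against neurons (0.67, edgeR adjusted p = 0.22).

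A pair of atypical subunits of the respiratory chain were among the genes most enriched over neurons. Cox4i2 (the alternative subunit 4 of cytochrome oxidase, chr2:152754173-152765037) averaged 20.6, 23.7 and 14.4 UMIs per 10000, against 0.00744, 0.0132 and 0.00678 in neurons and 1.48, 2.17 and 1.03 in mural cells. Its log2 fold change was 11.19 ± 0.40 against neurons (edgeR adjusted p = 1.09e-167) and 3.61 ± 0.27 against mural cells (4.12e-08). Ndufa4l2 (chr10:127514967-127517154) averaged 57.0, 59.3 and 36.3 against 0.00731, 0.00378 and 0.00573 in neurons and 1.19, 1.13 and 2.37 in mural cells, with a UMI in all 55 cells. Its log2 fold change was 13.06 ± 0.41 against neurons (edgeR adjusted p = 1.44e-212) and 5.02 ± 0.40 against mural cells (8.16e-08). Macrophages held no UMI of either gene.

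The common forms of the same subunits were lower than in neurons. Cox4i1 averaged 5.94, 7.54 and 7.33 UMIs per 10000 against 14.1, 12.2 and 12.9 (log2 fold change -1.16 ± 0.27, edgeR adjusted p = 1.85e-04), and Ndufa4 averaged 8.67, 6.57 and 7.15 against 25.4, 21.3 and 18.8 (-1.64 ± 0.27, 2.05e-08). Cox8a had a log2 fold change of -1.04. In mural cells Cox4i1 averaged 7.03, 8.30 and 6.61 and the difference from chromaffin-like cells did not pass the test (-0.34, edgeR adjusted p = 0.316), while without the neuron-rich cells it was called lower (-0.58, 0.0153). Without the anterior library all 3 common-form genes missed the threshold (edgeR adjusted p = 0.380, 0.284 and 0.603), and without the mixed library Cox4i1 and Cox8a did (0.133 and 0.175).

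The remaining oxygen-list genes covered channels, receptors and a metabolic enzyme. Values in parentheses are log2 fold changes against neurons unless named otherwise. Higd1c, a cytochrome oxidase-associated gene of glomus cells, had a UMI in 30 cells (0.131, 2.43 and 2.30 UMIs per 10000) and 7 UMIs in all neurons together (11.56 ± 0.55, edgeR adjusted p = 4.40e-95). The acid-sensitive potassium channel Kcnk9 (TASK-3) averaged 2.49, 1.17 and 3.13 (9.63 ± 0.42, 3.33e-111), and its relative Kcnk3 (TASK-1) differed by 0.98 ± 0.28 (edgeR adjusted p = 3.19e-03), a call lost without the anterior library (0.179). The odorant receptor Olfr78 averaged 2.30, 0.550 and 2.56 (1.33 ± 0.29, 5.52e-05), the adenosine receptor Adora2a 0.864, 3.19 and 2.40 (2.70) and Rgs4 4.03, 9.66 and 5.74 (1.76, lost without the anterior library at an edgeR adjusted p of 0.150). Pyruvate carboxylase (Pcx) was higher by 2.72 and the angiogenic factor Vegfa by 3.93. The calcium-activated potassium channel Kcnma1 (-1.41) and neuroglobin (Ngb, -2.92) were lower, and Kcnma1 was not called without the anterior library (edgeR adjusted p = 0.124).

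**Figure D3:**
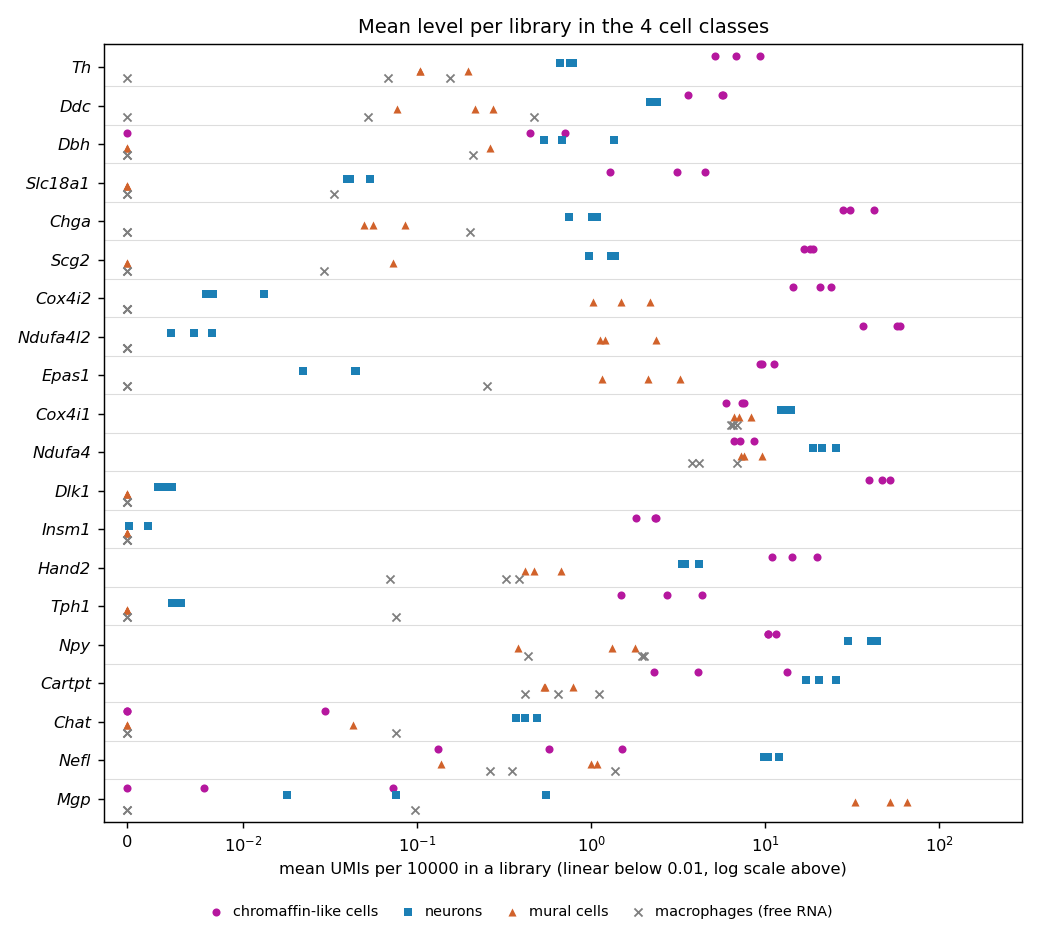
Mean level of 20 genes (UMIs per 10000, linear below 0.01 and log scale above) in 4 cell classes; each symbol is 1 library. Chromaffin-like cells stand above every other class for Cox4i2, Ndufa4l2, Epas1, Dlk1 and Chga, and below neurons for Cox4i1, Ndufa4, Npy and Nefl.

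Because Rgs5 is also a pericyte gene, the comparison with mural cells was repeated against those with Rgs5 at 2 or more per 10000, 22 mixed and 14 posterior cells (the anterior library had 4, too few for a sum). Then 267 genes were higher and 446 lower. Cox4i2 was still higher by 2.24 and Ndufa4l2 by 2.65 on the log2 scale (edgeR adjusted p = 6.21e-05 and 1.12e-08). Epas1 (0.51, edgeR adjusted p = 0.559), Rgs4 (0.01, 0.993) and Olfr78 (1.09, 0.169) were not called, nor were Egln1 (-0.81, 0.328), Pam (-0.27, 0.779) and Egfl7 (-0.055, 0.971). This repeat also had fewer mural cells and no anterior mural sum. Whether the 6 calls were lost through the choice of mural cells was not tested. Against all mural cells, Egln1 and Pam also lost the call without the anterior library (edgeR adjusted p = 0.112 and 0.0558).

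Sympathoadrenal transcription factors were shared with neurons in part. Of 23 tested, 6 were higher than in neurons and 6 lower (6 and 8 without the neuron-rich cells), and 8 of 11 tested were higher than in mural cells. Over all genes 7.55% were higher and 13.5% lower than in neurons, and 17.9% were higher than in mural cells. Phox2a, a factor of autonomic neuron identity, averaged 8.10, 7.78 and 5.56 UMIs per 10000, against 7.36, 6.29 and 5.03 in neurons. The difference did not pass the test (-0.09 ± 0.26, edgeR adjusted p = 0.853). The means over cells lay above those of neurons in each library, while the log2 fold change, fitted to scaled sums, was slightly negative. Why the directions differ was not tested.

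The 6 higher factors were Insm1, Hand1, Hand2, Tfap2b, Prox1 and Nr4a1. Insm1, a zinc-finger factor of endocrine and chromaffin differentiation (chr2:146221921-146225020), averaged 2.33, 2.34 and 1.80 UMIs per 10000 with a UMI in 37 cells, against 10 UMIs in all neurons together and none in mural cells. Its log2 fold change was 11.76 ± 0.44 against neurons (edgeR adjusted p = 2.76e-153), and it was at least 63.2-fold higher than in mural cells. Hand2, which drives noradrenergic differentiation, averaged 10.9, 19.7 and 14.2 against 3.47, 4.18 and 3.34 (1.49 ± 0.27, edgeR adjusted p = 5.51e-07), and missed the threshold without the anterior library (0.241). Prox1 had a UMI in 11 cells and was higher by 2.98 ± 0.57 (edgeR adjusted p = 3.51e-06). Hand1 had a UMI in 10 cells, none of them anterior (1.96 ± 0.49, edgeR adjusted p = 6.47e-04), and without the posterior library its direction turned (-0.59, 0.817). Tfap2b had a UMI in 5 cells (3.81 ± 1.25, edgeR adjusted p = 0.0146) and was not called when any of the 3 libraries was left out (0.0866 to 0.310). Nr4a1, also an immediate early gene (1.53 ± 0.54, edgeR adjusted p = 0.0253), was not called without the mixed or the posterior library (0.232 and 0.270). The lower factors included Isl1 (-1.12 ± 0.30), Gata3 (-1.02 ± 0.32) and Tlx2 (-1.72 ± 0.32). Isl1 and Gata3 were not called without the anterior library (edgeR adjusted p = 0.158 and 0.249), nor Isl1 without the mixed library (0.178). Gata2 had no UMI in the 55 cells and was at least 2.70-fold lower than in neurons. Its call was lost in 1 of 3 fits with a library left out, and was kept in 14 of 16 alternatives.

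Neuropeptide genes differed from those of neurons in which were high. Of 13 tested, 4 were higher (Penk, Gal, Adm and Nppa) and 4 lower (Npy, Cartpt, Vip and Tac1). The shares over all genes were 7.55% higher and 13.5% lower. Nppa, the atrial natriuretic peptide and also a cardiomyocyte marker, averaged 0, 1.61 and 0.277 UMIs per 10000, against 0.136, 0.663 and 0.304 in macrophages. Its log2 fold change against neurons was 1.54 ± 0.49 (edgeR adjusted p = 0.0116), and was not called without the neuron-rich cells (1.29, edgeR adjusted p = 0.059) or without the anterior library (-0.16, 0.934). Without the neuron-rich cells 3 were higher and 4 lower. Npy averaged 11.5, 10.3 and 10.3 UMIs per 10000, against 40.3, 43.6 and 29.8 in neurons, 0.379, 1.32 and 1.78 in mural cells and 0.433, 2.00 and 1.95 in macrophages. Cells ran from 0 through a median of 10.1 to 28.7, and 50 had a UMI. Npy thus lay between the neurons, at -2.39 ± 0.26 on the log2 scale (edgeR adjusted p = 1.76e-17), and the mural cells, at 3.06 ± 0.39 (8.32e-06). Without the anterior library the neuron difference missed the threshold (edgeR adjusted p = 0.0635).

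Cartpt averaged 2.30, 13.4 and 4.12 UMIs per 10000 against 20.3, 25.4 and 17.2 in neurons (-2.44 ± 0.28, edgeR adjusted p = 1.57e-16), and all 14 anterior cells had a UMI. Adrenomedullin (Adm), a vasodilator peptide, averaged 9.34, 4.97 and 3.89 against 0.299, 0.301 and 0.192 (4.05 ± 0.29, 1.65e-40). The enkephalin precursor Penk had a UMI in 8 cells and galanin (Gal) in 16. Gal was not called without the anterior library (edgeR adjusted p = 0.0728). The 2 Vip UMIs were posterior, and Tac1 had none.

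Tph1, which begins serotonin synthesis, was present. Tph1 (tryptophan hydroxylase, chr7:46644641-46672537) averaged 1.48, 4.31 and 2.73 UMIs per 10000 with a UMI in 36 cells, against 0.00387, 0.00401 and 0.00466 in neurons, none in mural cells and 0, 0 and 0.0760 in macrophages. It was higher than in neurons by 8.63 ± 0.35 on the log2 scale (edgeR adjusted p = 1.31e-128). The brain form Tph2 and the histamine enzyme Hdc had no UMI. The serotonin receptor Htr3a was lower than in neurons (-2.62 ± 0.33, edgeR adjusted p = 5.26e-14). Of the 5 tested genes of the serotonin and histamine list, 1 was higher and 2 lower, where 7.55% of all genes were higher and 13.5% lower.

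All 5 tested genes of the cholinergic system were lower than in neurons, 4 without the neuron-rich cells. Over all genes 13.5% were lower. Chat (choline acetyltransferase) averaged 0, 0 and 0.0296 UMIs per 10000 against 0.417, 0.371 and 0.486 in neurons (-2.88 ± 0.61, edgeR adjusted p = 3.76e-05). The vesicular acetylcholine transporter Slc18a3 and the choline transporter Slc5a7 differed by -3.31 and -3.38. Ache (-1.49) kept a UMI in 34 cells and was not called without the anterior library (edgeR adjusted p = 0.104). Bche had no UMI, and its call was lost without the neuron-rich cells (edgeR adjusted p = 0.0523) and when any library was left out (0.173 to 0.292).

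**Figure D4:**
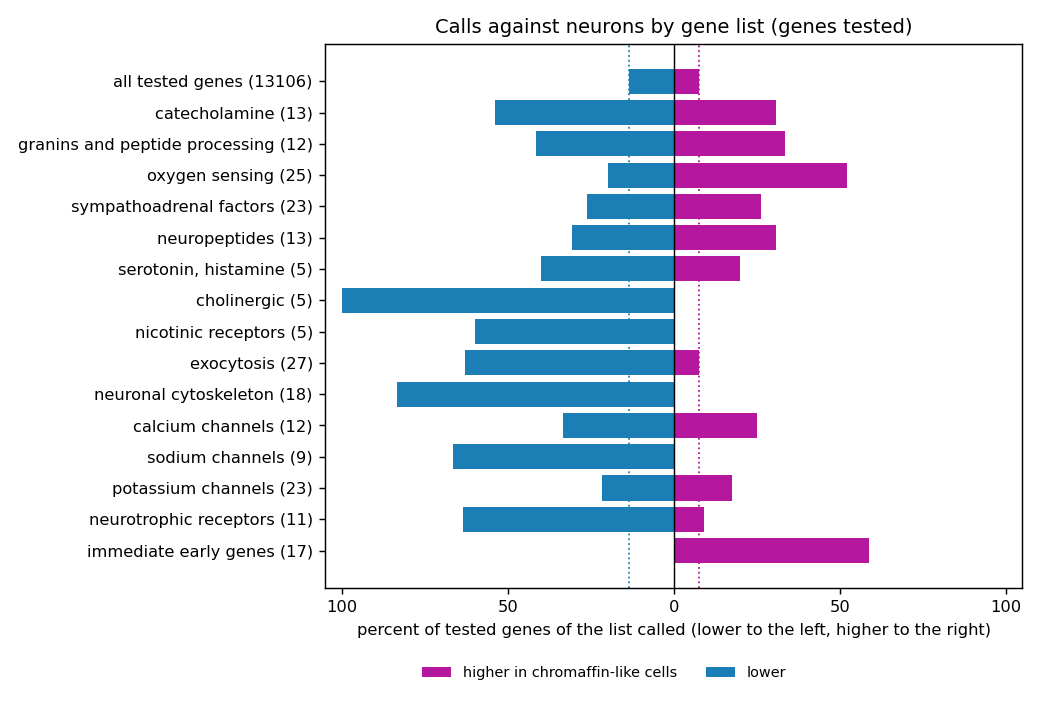
Percent of the tested genes of each list that edgeR called higher (right) or lower (left) in chromaffin-like cells than in neurons, with the number of tested genes in parentheses. Dotted lines mark the values over all genes, 7.55% higher and 13.5% lower; 13 of 25 oxygen-sensing genes were higher, and 15 of 18 neuronal cytoskeleton genes lower.

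Neuronal machinery was lower across several lists. In the cytoskeleton list 15 of 18 tested genes were lower than in neurons and none higher. Over all genes 13.5% were lower and 7.55% higher. Tubb3 averaged 0.378, 3.95 and 3.27 UMIs per 10000 against 27.6, 26.1 and 23.5, and neurofilament light chain (Nefl) 0.132, 0.570 and 1.5 against 12, 10.4 and 9.80, with log2 fold changes of -3.15 and -3.97. Macrophages had 0.262, 0.352 and 1.38 of Nefl, a range that overlaps that of the chromaffin-like cells. Of 27 exocytosis genes 17 were lower, down to Rab27b (-2.98), and 2 were higher, a share near the 7.55% over all genes. These were Syt7, a calcium sensor of dense-core vesicles, at 3.34 ± 0.31 (edgeR adjusted p = 2.00e-25), and Cplx2 at 1.05 ± 0.28, which was not called without the mixed or the anterior library (edgeR adjusted p = 0.235 and 0.139).

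The ion channel lists followed different patterns. No sodium channel gene of 9 tested was higher and 6 were lower, among them Scn9a (-3.66 ± 0.42, edgeR adjusted p = 2.26e-16). Of 12 calcium channel genes 3 were higher, the L-type subunits Cacna1d (3.30) and Cacna1c (2.21) and the auxiliary Cacna2d3 (1.03), and 4 were lower. Cacna1c was not called without the anterior library (edgeR adjusted p = 0.110), nor Cacna2d3 without the anterior or the posterior library (0.348 and 0.133). The T-type subunit Cacna1h, listed with the oxygen-sensing genes, had a UMI in 10 cells and was higher by 7.06 ± 1.01 (edgeR adjusted p = 1.01e-10). Of 23 potassium channel genes 4 were higher and 5 lower. For all these channel lists, the shares over all genes were 7.55% higher and 13.5% lower. Kcnmb2, an auxiliary subunit of calcium-activated channels, had a UMI in 30 cells at 1.62, 0.392 and 0.788 UMIs per 10000 and 5 UMIs in all neurons together (11.69 ± 0.75, edgeR adjusted p = 7.56e-52).

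In each receptor list more genes were lower than higher. Of 11 tested neurotrophic genes 7 were lower, down to Ret (-4.21), and the ligand Gdnf was higher, with a UMI in 14 cells. Gdnf had 16 UMIs in the 55 cells and 3 in all neurons, a ratio of 2269 with an exact Poisson interval of 650 to 12152. Of 5 nicotinic subunit genes 3 were lower, including Chrnb4 (-3.28) and Chrna5 (-4.06), and none was higher. Of 15 G protein-coupled receptor genes 2 were higher, with the angiotensin receptor Agtr1a at 4.09 and the endothelin receptor Ednra at 1.24, and 7 were lower. The shares over all genes were 7.55% higher and 13.5% lower. Ednra was not called when any of the 3 libraries was left out (edgeR adjusted p from 0.0691 to 0.194).

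Among all genes, the 15 with the highest log2 fold change against neurons, of 296 that met the naming rule, were led by Dlk1. Dlk1, a non-canonical Notch ligand also known from the adrenal medulla (chr12:109452823-109463336), averaged 52.2, 46.9 and 39.6 UMIs per 10000 and was found in all 55 cells, from 0.700 through a median of 43.9 to 126. All neurons together held 63 Dlk1 UMIs, and mural cells and macrophages none. The log2 fold change against neurons was 13.81 ± 0.43 (edgeR adjusted p = 7.96e-221), and the level was at least 1318-fold above that of mural cells. Gpr139, Dgkk, Galnt6, Lamc3, Cldn5, Scnn1b, Nptx1 and Prrx1 followed beside Ndufa4l2, Cox4i2, Insm1, Kcnk9, Tph1 and Epas1. Cldn5, the tight-junction protein claudin 5, averaged 7.61, 5.21 and 10.6 and was found in 49 cells.

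The 15 lowest against neurons, of 1085 that met the rule, included Pdlim2, Cntn5, Akain1, Plcxd3, Ptger3, Ret and Efna5. Pdlim2 had no UMI in the 55 cells and was at least 15.6-fold lower. Ank2, an anchor of axonal membrane proteins, averaged 0.152, 0.374 and 1.91 against 8.41, 10.8 and 13.0 (-3.63 ± 0.33, 2.99e-25).

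Against mural cells the highest were again Dlk1, followed by Pkib, Agrp, Scg2 and C2cd4b. Pkib, a protein kinase A inhibitor (chr10:57631981-57741112), averaged 22.9, 20.7 and 13.4 UMIs per 10000, against 0.473, 0.418 and 0.354 in neurons and 1 UMI in all mural cells together. Agrp, a melanocortin receptor antagonist best known from hypothalamic neurons, averaged 4.75, 6.39 and 5.91 with a UMI in 39 cells. Mural cells held no UMI of Agrp, C2cd4b, Cxcl14, Slc35d3, Nxph4 or Lef1, and the levels were at least 191-, 163-, 128-, 70.4-, 59.0- and 51.9-fold higher. Among the lowest, Mustn1, Ppp1r14a, Ogn, Lmod1 and Col1a1 had no UMI in the 55 cells and were at least 220-, 173-, 169-, 163- and 103-fold lower. Matrix Gla protein (Mgp) averaged 0, 0.0727 and 0.00667 against 65.3, 51.9 and 32.9 in mural cells (-10.77 ± 0.45, edgeR adjusted p = 1.65e-10).

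Immediate early genes lay between the classes. Of 17 tested against neurons 10 were higher and none lower, where 7.55% of all genes were higher and 13.5% lower. Of 16 tested against mural cells none was higher and 15 lower, where 17.9% of all genes were higher and 22.8% lower. Their summed level was 62.6, 33.5 and 46.4 UMIs per 10000 in chromaffin-like cells, 13.4, 20.2 and 25.3 in neurons, 176, 178 and 175 in mural cells and 176, 139 and 145 in macrophages. Fos had a UMI in 32 of the 55 cells and averaged 15.9, 17.5 and 20.2 (3.27 ± 0.29 against neurons, edgeR adjusted p = 3.27e-27).

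Actl6b, whose promoter drives the Cre, had a UMI in 22 of the 55 cells. It averaged 0.622, 0.569 and 0.412 UMIs per 10000, against 0.692, 0.799 and 0.637 in neurons and none in mural cells or macrophages. The difference from neurons did not pass the test (-0.65 ± 0.33, edgeR adjusted p = 0.164). Without the 3 neuron-rich cells Actl6b was called lower (-0.92, edgeR adjusted p = 0.0253). The level was at least 19.7-fold above that of mural cells.

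Variation among the 55 cells was described after thinning each to 2000 UMIs. The cells of the 3 libraries were pooled, so differences between libraries count towards the variance. Of 596 genes with a mean of at least 0.5 UMI, the median variance to mean ratio was 1.21. The highest ratios were those of Malat1 (153) and Gm42418 (89.1), a nuclear RNA and a gene that overlaps ribosomal RNA, followed by the heat shock protein gene Hspb1 (18.9). Then came mt-Atp6, mt-Co2, Chgb (9.02), Ly6h (8.37), Tubb3 (7.86), Fos, Jun, mt-Cytb and Tmem158. Tubb3 fell to 1.17 without the 3 neuron-rich cells, so its spread rested on them. Ly6h had a UMI in 12 cells, with 60.7 UMIs per 10000 in the highest.

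Anterior and posterior cells, 14 and 21, can be compared only as 1 library each, so ratios of summed UMIs, each per 1000000, are given with exact Poisson intervals and no test. Genes were ranked by the ratio itself, and the intervals do not allow for that choice. In all, 677 genes met the naming rule with a higher level in the posterior library. The highest were Ank2 (12.9-fold, 4.31 to 63.4), Mfsd6, Olfm1, Vat1l and Slc7a14 (5.01-fold, 1.61 to 25.1). In neurons the anterior to posterior ratio of these 5 genes lay between 0.727 and 1.04. The 2 neuron-rich posterior cells held 40.1% of the posterior UMIs. Without the 3 neuron-rich cells, the 6 highest in the posterior library were S100a6 (4.55-fold, 2.37 to 9.80), Jun (4.27-fold, 2.22 to 9.21), Cxcl14 (3.52-fold, 2.11 to 6.23), Snhg18, Junb and Slc18a1 (2.70-fold, 1.49 to 5.31).

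With a higher level in the anterior library, 606 genes met the rule. The highest were Nrn1 (3.34-fold, 1.96 to 5.69), Nelfcd, Dpm1, Prrx1, Tm2d2 and Psmc4 (2.78-fold, 1.54 to 5.01). In neurons the anterior to posterior ratios of these genes were 1.42, 0.991, 1.07, 0.468, 1.20 and 1.10, in that order. Without the neuron-rich cells 389 genes met it, led by Kif1b (2.27-fold, 1.28 to 4.03), Nrn1 (2.26-fold) and Lars2. Nelfcd, Pcsk1n (2.17-fold, 1.82 to 2.58) and Prrx1 (2.04-fold) followed. The neuron ratios of these genes were 0.901, 1.42, 1.26, 0.991, 1.42 and 0.468, in that order. Nrn1 was thus among the anterior genes in both sets, as were Nelfcd and Prrx1. Nrn1 had a UMI in 8 anterior and 5 posterior cells, so few cells carry its ratio.

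**Figure D5:**
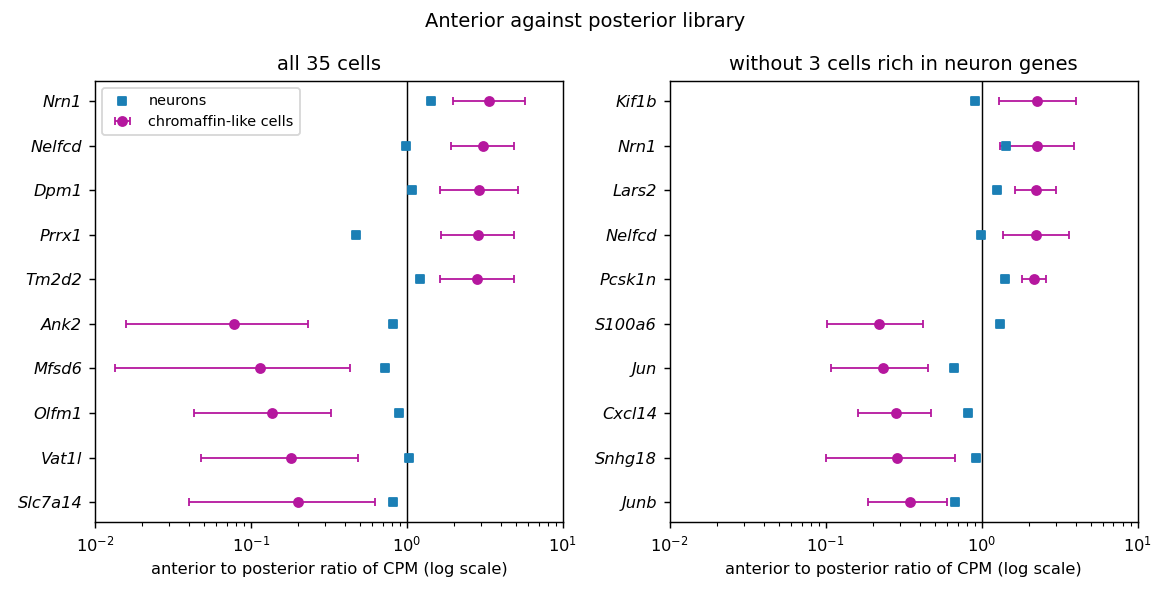
Anterior to posterior ratio of summed UMIs per 1000000 (log scale) for the 5 genes highest in each library, over all 35 cells (left) and without the 3 neuron-rich cells (right). Circles with bars are chromaffin-like cells with exact Poisson 95% intervals, squares are neurons; the posterior genes of the left panel give way to others on the right.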

How the data were processed

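Cells sorted from the hearts were profiled in 3 single-cell libraries. The deposited matrices hold UMI counts per gene and barcode, which the authors made with Cell Ranger, version 3.1.0 for the mixed and 6.1.2 for the anterior and posterior library per the file headers, while the submitters' processing notes name release 7.1.0 of that program, the mm10 build and Seurat (4.4.2). The kept barcodes of a library held 54939791 to 118444471 UMIs. From the counts, 30406 features shared by all libraries were used, cells were classed as the results state, and UMIs were summed per class and library where a class had at least 5 cells. Macrophages had at least 3 macrophage markers with a summed level of at least 10 UMIs per 10000. Sums were tested with edgeR 4.0.16 (R 4.3.3, quasi-likelihood, TMM, filterByExpr, library as a term) at a Benjamini-Hochberg adjusted p under 0.05. The genes that define a class stayed in the fit but were left out of the counts and are only described. Standard errors (±) were back-calculated as the absolute log2 fold change divided by the square root of the F statistic of the edgeR test. Floors are 3 counts over a pooled class. Thinning to 2000 UMIs left out 11 mural cells and 7 macrophages. Scrublet (scanpy 1.11.5) marked 22 of 7091 barcodes. Libraries shared 5 kept barcodes, none of them chromaffin-like.

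The cells and gene lists were chosen with earlier results of these data known. Genes were named as the 15 highest or lowest log2 fold changes among called genes with at least 50 UMIs per 1000000 in every library, as members of the catecholamine, granin, oxygen, transcription factor, neuropeptide and serotonin lists, and as the 2 highest and 2 lowest of other lists. Anterior and posterior genes needed at least 50 UMIs over both libraries. Alternatives were DESeq2 1.42.0, its size factors, no filter, no library term, each library left out, other cell limits, thinned cells and other neuron or mural sets. Leaving out the 3 neuron-rich cells was chosen after seeing the data. Statistics were tested on simulated data, where 4 false calls arose among 13352 genes for neurons and 2 among 3919 for mural cells. Promoters are from RefSeq GRCm38.p6 and gene positions from GENCODE vM21 on GRCm38. Results for a few genes are not reported here.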

Additional observations from a re-analysis of the deposited data

Results flagged for a closer look

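The mixed library alone was aligned with added reporter features, which no comparison above uses. Of its 20 chromaffin-like cells, 2 had an eGFP UMI (10.0%, exact Clopper-Pearson 95% interval 1.23 to 31.7), with 3 UMIs in all. In the same library 295 of 1970 neurons had an eGFP UMI (15%, 13.4 to 16.6). None of its 104 mural cells had one, which with the same interval allows up to 3.48%, nor did any of its 22 macrophages, which allows up to 15.4%. Depth differed, with a median of 7588.5 UMIs in the chromaffin-like cells of that library and 57390 in its neurons, and these shares were not thinned. Per 10000 UMIs the mean eGFP level was 0.188 in the 20 cells and 0.0289 in neurons, the opposite order, so no order is read from either. The intervals of the chromaffin-like cells and of the mural cells overlap.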

How the results depend on the processing

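The counts of genes against neurons depended on the libraries: with each library left out in turn they ran from 535 to 629 higher and from 682 to 1571 lower. With cells thinned to 2000 UMIs 285 genes were higher, and DESeq2 called 970 lower. Against mural cells DESeq2 called 396 higher, thinned cells gave 179 higher and 252 lower, mural cells with Rgs5 gave 267 higher and 446 lower, and no filter on low counts gave 1754 lower. These tests cover fewer UMIs, fewer cells or, without the filter, more genes; DESeq2's cause was not tested. Without the replicate block (library as a term) the counts were 930 higher and 1395 lower against neurons and 641 and 863 against mural cells. The posterior share without cells that meet the neuron criterion was 0.381%. Of 1681 alternative values for 106 named genes called against neurons, 1582 kept direction and call, 96 lost the call and 3 reversed. Of 809 for 52 genes called against mural cells, 796 kept both, 12 lost the call and 1 reversed. Among the settings, Chgb at 5 or more UMIs and fewer than 2 mural genes chose the same 55 cells. Agreement under those settings was fixed in advance. Reversed log2 fold changes against neurons were Dbh at 0.10 without the anterior library (-1.02 without the posterior) and 0.26 with Rgs5 at 1 or more per 10000, Vip at 0.59 with that limit, Hif1a at -0.55 after thinning, Hand1 at -0.59 without the posterior library (2.72 without the mixed), Nppa at -0.16 without the anterior (2.71 without the posterior), and Phox2a at 0.0054 without the mixed library (-0.20 without the anterior). Against mural cells with Rgs5, Egfl7 reversed to -0.055. The cause of each reversal was not tested. On simulated data 2-fold differences were recovered less often than 4-fold ones, and genes with few UMIs were not covered. Whether depth sets this limit was not tested.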
